A study of Mus musculus with 3 samples.

Results

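Rab GTPases and the proteins that switch them on and off were followed across 3 dendritic cell (DC) subsets of mouse spleen. Members were chosen by gene symbol: Rab followed by a digit, or a symbol starting with Tbc1d, Rabgap, Rabgef, Rabep, Rabif or Dennd, or Rin1, Rin2 or Rin3. The rule found 284 probe sets of 129 genes, out of 34958 probe sets that name 1 gene and 18194 genes in all. Of the 129 members, 59 encode Rab GTPases, 34 belong to the GTPase-activating protein (GAP) families, 23 to exchange factor (GEF) families, and 8 encode effectors. The other 5 matched by name only: Rab5if, which encodes no Rab protein, and the antisense transcripts Rab10os, Rab11fip4os1, Rab26os and Tbc1d22bos.

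Plasmacytoid DC (pDC), CD11b+ conventional DC (cDC) and CD8+ cDC were sorted by flow cytometry from spleens of healthy, naïve female C57bl/6 mice aged 6 to 8 weeks, after T and B cells had been removed with magnetic beads. No group was treated, and the mice carried no allele that the labels name. RNA of 5 to 8 mice was pooled per subset, and 1 Affymetrix array was hybridised for each, from 20 ng of amplified RNA. With no replicate array, the spread between samples is unknown, and no p-value is given.

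Rab proteins are small GTPases that act as switches on the surface of membranes. GEFs load them with GTP, after which they recruit effectors that move, tether or fuse vesicles, and GAPs, most of them with a TBC domain, return them to the inactive GDP form. Different Rab proteins mark different compartments, from the Golgi to early endosomes, recycling endosomes, phagosomes and lysosomes. In DC this traffic carries engulfed antigen to the compartments where it is cut and loaded onto MHC molecules, and in pDC it also brings nucleic acids and their receptors together.

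Signals are probe set intensities as the authors deposited them. A signal above 111 was taken as above background, a level set from 87 probe sets of odorant, vomeronasal, trace amine and taste receptor genes. A member was counted as higher on an array at 2-fold or more over the other, with the brighter array above background, and each gene was read at its brightest probe set. Where the dimmer array lay at background the fold is written as at least that size. Fewer cells that express a gene and less RNA per cell cannot be told apart in such pooled samples.

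The arrays carried the markers of their labels. Of 10 pDC marker genes, 9 were brightest on the pDC array (Cd300c2 was not), as were 7 of 8 CD11b+ cDC markers on that array (Cd4 was brightest on pDC) and 9 of 9 CD8+ cDC markers on theirs. Of 5 T cell markers, Cd3d, Cd3e, Cd3g and Trat1 were not above background on any array, while Cd28 gave 4830 on the pDC array and was below background on the others. Of 6 B cell markers, Cd79a, Pax5 and Fcer2a were below background throughout. Ms4a1 gave 223 (pDC), 11046 (CD11b+ cDC) and 19147 (CD8+ cDC), while Cd79b ran the other way at 10103, 4025.5 and 381. Cr2 was above background only on the CD11b+ cDC array, at 509. The set summed to 10576, 15773 and 19774. The part of this set in the members' differences was not tested. The 4 neutrophil markers summed to 2182, 15607 and 1047 in the same order, all 4 brightest on the CD11b+ cDC array, and 8 macrophage and monocyte markers to 97777, 214658 and 112741, 5 of them brightest there. Their part in the members high in CD11b+ cDC was not tested. The 5 plasma cell markers summed to 179993, 57469 and 49315, with 3 brightest on the pDC array and 2 on the CD11b+ cDC array. Mzb1 gave 47739, 249 and 89.2, Sdc1 3355, 91 and 96.9, and Xbp1 120877, 42657 and 47954. Jchain (7870, 14060 and 957) and Prdm1 (152, 413 and 218) were brightest on CD11b+ cDC. The part of these markers in the members higher in pDC was not tested. The ratio of 3' to 5' control signals ran from 2.91 to 5.71 for Actb and from 9.68 to 17.6 for Gapdh, lowest on the CD11b+ cDC array for both.

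Most members were expressed, and about as many on one array as on another. Of 129 members, 104 were above background in pDC, 106 in each cDC subset and 107 in at least 1 subset; 16 exceeded the largest 16-bit scanner reading on some array, Rab7b, Rab33b and Tbc1d9 among them. The 22 members below background on all 3 arrays included Rab17 and Rab25, which are known from epithelial cells, and Rab27b, Rab3b, Rab4a, Rab9b, Rab33a, Rab39b and Rin1. Of the 107, 51 differed by less than 2-fold in every pair and 56 reached 2-fold in at least 1 pair, a share of 52.3% against 41.3% of all 11015 genes above background.

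In pDC against CD11b+ cDC, 13 of 107 members were higher in pDC, and 24 stood higher in CD11b+ cDC. Over all genes, percent called was 15% toward pDC and 14.3% toward CD11b+ cDC, so the members' 22.4% toward CD11b+ cDC was above the background share and their 12.1% toward pDC was near it. Against CD8+ cDC, 18 members favoured pDC and 27 favoured CD8+ cDC, or 16.8% and 25.2%, beside 16% and 14.8% of all genes. Between the cDC subsets, 15 members were higher in CD8+ cDC and 15 in CD11b+ cDC, 14.2% each way, beside 9.86% and 10.3% of all genes. The 3 comparisons share arrays and are not separate evidence.

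**Figure D1:**
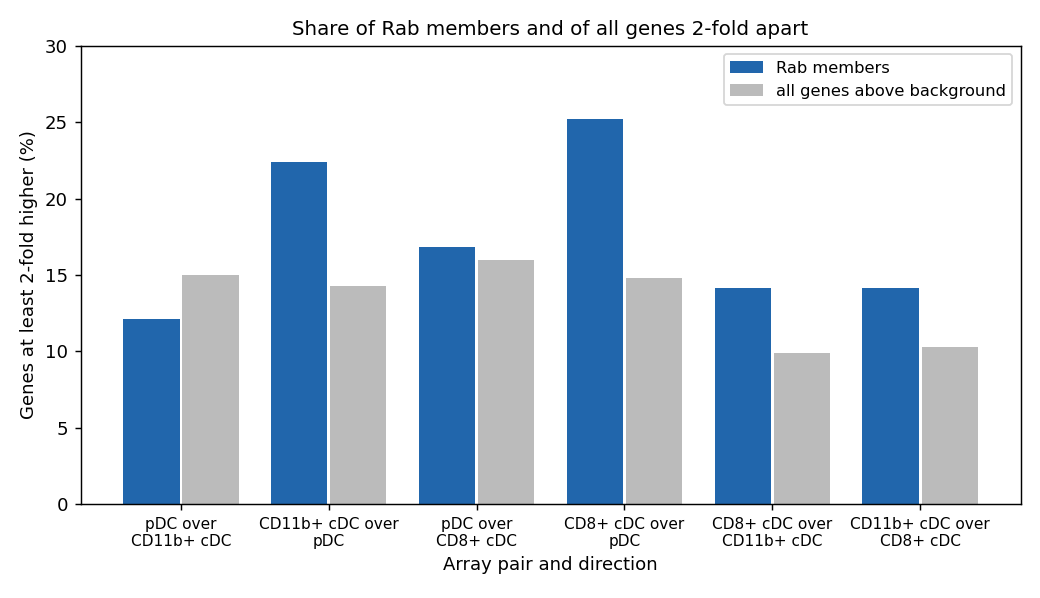
Percent of the Rab members measured (blue) and of all genes measured (grey) that were at least 2-fold higher, for each array pair (1 array per subset) and direction. The members reached 22.4% for CD11b+ cDC over pDC and 25.2% for CD8+ cDC over pDC, against 14.3% and 14.8% of all genes.

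Median log2 differences of the members were -0.24 (pDC over CD11b+ cDC), -0.19 (pDC over CD8+ cDC) and 0.00 (CD8+ over CD11b+ cDC), beside 0.01, 0.00 and 0.01 for all genes. These splits depended on the scaling of the arrays. Scaled on 9 hybridization spike-in probe sets, the members split 11 to 34, 29 to 18 and 4 to 56 in the same 3 pairs, with medians of -0.60, 0.42 and -1.04, and all genes moved with them (medians -0.33, 0.66 and -0.99). The share of member calls toward the first subset of each pair went from 35.1% to 24.4%, from 40% to 61.7% and from 50% to 6.67%. Over all genes that share went from 51.2% to 33.5%, from 51.9% to 78.0% and from 49.0% to 6.97%. Of the 15 members higher in CD8+ than in CD11b+ cDC, Rab7b, Rab32, Rab39 and Dennd2d kept the call with spike-in scaling and the other 11 lost it: Dennd2c, Rab11a, Rab11fip4, Rab13, Rab19, Rab33b, Rab43, Rabgap1l, Rabgef1, Tbc1d12 and Tbc1d24. Of the 27 higher in CD8+ cDC than in pDC, 9 lost the call: Dennd1b, Rab13, Rab23, Rab3il1, Rab5if, Rab8b, Rabgef1, Tbc1d1 and Tbc1d12. Rab3ip and Tbc1d2b lost that of pDC over CD11b+ cDC. Calls were gained by 10 members toward CD11b+ cDC over pDC, 11 toward pDC over CD8+ cDC and 41 toward CD11b+ over CD8+ cDC, the last including Rab9, Rab12 and Rab14. Directions are therefore given relative to the bulk of genes.

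At the 2-fold rule a subset can stand above or below both others, which gives 6 patterns. The patterns overlap, as at Rab32, and some called members, such as Rab8b, fit none. Lower in pDC than in both cDC subsets were 14 members (13.1% of 107, beside 8.56% of all genes), and higher in pDC than in both were 12 (11.2%, beside 10.4%). CD8+ cDC stood above both others at 12 members (11.2%, beside 6.02%) and CD11b+ cDC at 10 (9.35%, beside 5.02%). CD11b+ cDC stood below both at 3 members (2.80%, beside 2.99%) and CD8+ cDC at 5 (4.67%, beside 4.34%). A stricter rule of 4-fold over both others, with the brightest array at 4 times background, was met by 6 of 100 members for pDC (beside 5.07% of all genes), 4 for CD11b+ cDC (beside 2.41%) and 3 for CD8+ cDC (beside 2.89%). The stricter pDC set was Rab6b, Rab33b, Rabgap1l, Dennd5b, Rab3d and Rab11fip5, the CD11b+ cDC set was Rin2, Dennd3, Tbc1d16 and Rab37, and the CD8+ cDC set was Rab7b, Rab39 and Rab32. These sets also depended on the scaling: with spike-in scaling 13 members met the stricter rule, and only 9 of them were in the same set as here.

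**Figure D2:**
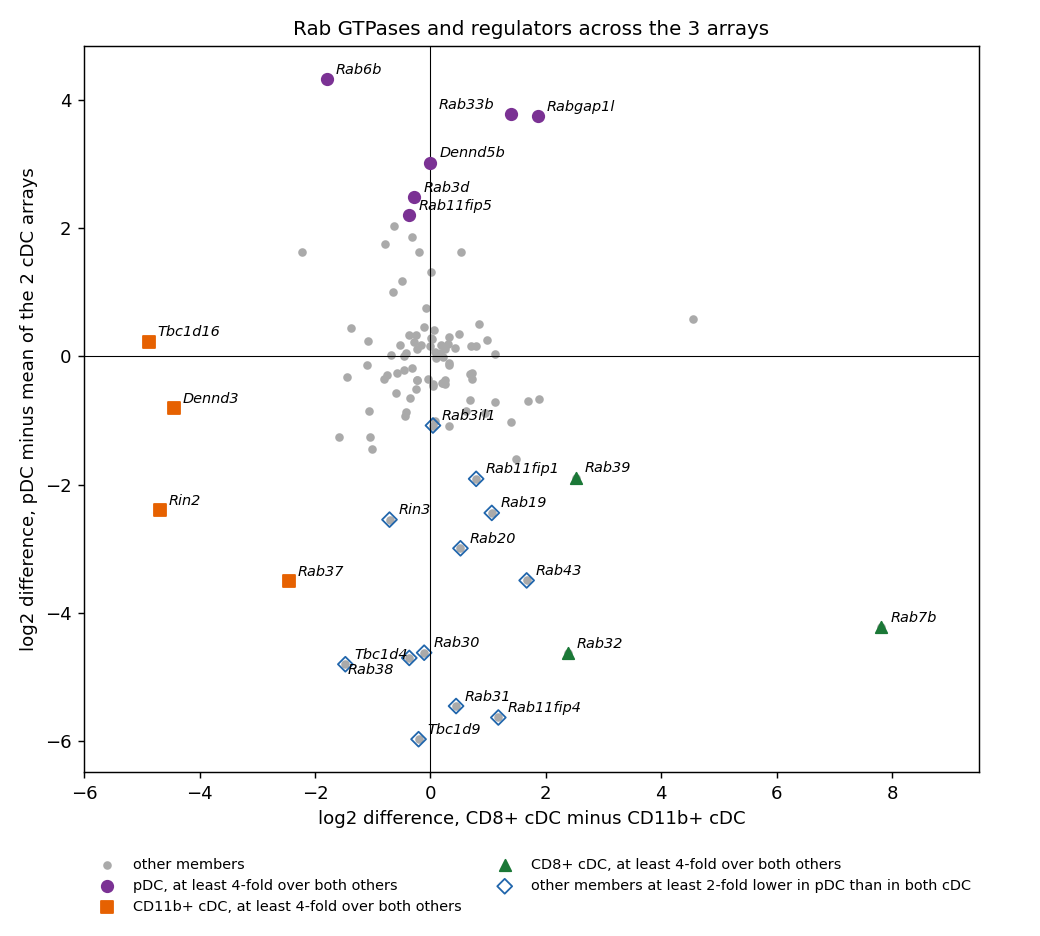
Each point is 1 of 107 members above background, placed by the log2 difference of the 2 cDC arrays (x axis) and by the log2 difference of pDC from their mean (y axis). Colours mark members at least 4-fold over both other arrays, and open diamonds the other members at least 2-fold lower in pDC than in both. Rab7b lies far to the right at 7.81 and Tbc1d9 lowest at -5.97.

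Sequence just upstream of the start site is shown for 6 members that stand for these patterns and have a single listed start: Rab6b and Rab33b for pDC, Rin2 for CD11b+ cDC, Rab32 and Rab39 for CD8+ cDC, and Tbc1d9 for both cDC subsets. Each run holds the 250 bases before the start, 5′ to 3′ on the gene's strand, from RefSeq's mouse build GRCm38.p6. The windows are chr9:103111824-103112073 (+ strand) for Rab6b, chr3:51483716-51483965 (+) for Rab33b, chr2:145785866-145786115 (+) for Rin2, chr10:10558208-10558457 (- strand) for Rab32, chr9:53706233-53706482 (-) for Rab39 and chr8:83165102-83165351 (+) for Tbc1d9. Capitals mark matches on either strand to CANCTG, the E-box letters bound by E proteins such as Tcf4, or GAGGAA, the core bound by PU.1.
Rab6b: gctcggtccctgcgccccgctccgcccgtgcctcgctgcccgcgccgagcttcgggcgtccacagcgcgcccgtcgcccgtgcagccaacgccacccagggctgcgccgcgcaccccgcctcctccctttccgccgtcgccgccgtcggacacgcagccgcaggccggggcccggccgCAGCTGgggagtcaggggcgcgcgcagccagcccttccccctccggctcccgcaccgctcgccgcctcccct
Rab33b: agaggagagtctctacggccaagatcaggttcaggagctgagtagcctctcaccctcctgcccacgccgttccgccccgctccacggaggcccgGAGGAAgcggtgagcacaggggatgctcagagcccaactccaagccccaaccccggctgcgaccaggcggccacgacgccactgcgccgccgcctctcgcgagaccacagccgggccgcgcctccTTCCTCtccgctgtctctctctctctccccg
Rin2: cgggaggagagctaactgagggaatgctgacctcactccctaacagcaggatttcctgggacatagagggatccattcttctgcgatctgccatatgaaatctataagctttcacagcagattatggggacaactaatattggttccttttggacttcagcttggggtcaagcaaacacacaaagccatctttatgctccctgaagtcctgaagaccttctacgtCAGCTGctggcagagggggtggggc
Rab32: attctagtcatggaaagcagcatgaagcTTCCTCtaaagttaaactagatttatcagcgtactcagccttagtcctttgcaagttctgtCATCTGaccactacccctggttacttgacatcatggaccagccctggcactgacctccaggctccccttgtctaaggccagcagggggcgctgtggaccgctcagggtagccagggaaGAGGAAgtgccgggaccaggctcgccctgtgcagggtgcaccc
Rab39: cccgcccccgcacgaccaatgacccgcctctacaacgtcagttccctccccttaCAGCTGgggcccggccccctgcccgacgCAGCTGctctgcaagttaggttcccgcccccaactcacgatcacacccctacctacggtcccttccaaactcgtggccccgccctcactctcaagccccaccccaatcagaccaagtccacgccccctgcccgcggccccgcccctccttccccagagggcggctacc
Tbc1d9: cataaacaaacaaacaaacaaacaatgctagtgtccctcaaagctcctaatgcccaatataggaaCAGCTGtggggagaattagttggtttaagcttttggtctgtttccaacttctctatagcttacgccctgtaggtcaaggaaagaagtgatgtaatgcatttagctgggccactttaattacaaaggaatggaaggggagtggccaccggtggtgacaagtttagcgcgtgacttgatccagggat
E-box letters were found in 5 of these 6 windows, all but that of Rab33b, and PU.1 letters in those of Rab33b and Rab32. Of 106 members with a listed window, 49 held CANCTG (46.2%, beside 48.2% of 27025 genes) and 26 held GAGGAA (24.5%, beside 25.9%). CANCTG was held by 3 of 11 members higher in pDC than in both others (27.3%) and 5 of 9 lower in pDC than in both (55.6%). It was held by 5 of 10 members highest in CD8+ cDC (50%) and 3 of 6 highest in CD11b+ cDC (50%). In the same order 2, 3, 5 and 1 of these held GAGGAA (18.2%, 33.3%, 50% and 16.7%). These classes are small and overlap. A gene counted once if any of its listed windows matched. The AP-1 letters TGANTCA, the ETS-IRF composite element and the IRF element were in 3, 2 and 2 members' windows (2.83%, 1.89% and 1.89%, beside 7.82%, 2.68% and 3.46% of genes), and in none of the 6 printed. Members' windows were richer in G and C (median 60.4%) than those of all genes (median 52.4%). Matches describe the letters only.

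Among Rab proteins of late endosomes, lysosomes and lysosome-related organelles, 7 of 9 were above background, and in 3 of the 7 the CD8+ cDC signal was at least 2-fold that of pDC, where 14.8% of all genes were called that way. Rab7b, which is known for transport from late endosomes to the trans-Golgi, gave signals of 405 (pDC), 505 (CD11b+ cDC) and 113196 (CD8+ cDC). That placed CD8+ cDC 279-fold above pDC and 224-fold above CD11b+ cDC, the largest differences of any member. All 3 probe sets of the gene were called, from at least 11.6-fold up to 279-fold over pDC, and from at least 11.6-fold up to 339-fold over CD11b+ cDC. Its relative Rab7, which drives fusion of late endosomes with lysosomes, gave 71779.5, 84977 and 101141 in the same order and differed by at most 1.41-fold.

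Rab32 and Rab38 are related GTPases that build melanosomes and other lysosome-related organelles, and both were low in pDC. Rab32 gave 1353 (pDC), 14651 (CD11b+ cDC) and 76139 (CD8+ cDC), so that CD8+ cDC lay 56.3-fold above pDC and 5.20-fold above CD11b+ cDC. Rab38 gave 259.6, 7664 and 5943, and the cDC arrays lay 29.5-fold and 22.9-fold above pDC while differing 1.29-fold from each other. Both probe sets of Rab38 were called in both pairs, from 22.9-fold to 30.8-fold.

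Rab27a, which brings secretory lysosomes and exosomes to the plasma membrane, ran the other way. It gave 5067 (pDC), 1374 (CD11b+ cDC) and 1984 (CD8+ cDC), 3.69-fold and 2.55-fold higher in pDC. Only 1 of its 4 probe sets was above background, so no second reading exists. Rab9, which returns receptors from late endosomes to the Golgi, was among the flattest members at 11771, 10580.2 and 10541, and Rab29 gave 7025, 8769.6 and 5443.

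Of 15 Rab proteins of early and recycling endosomes, 12 were above background. Between pDC and CD11b+ cDC 1 of the 12 was called (8.33%, beside 29.3% of all genes), and in each of the other pairs 3 were (25%, beside 30.8% against CD8+ cDC and 20.1% between the cDC subsets). The first was Rab31, a relative of Rab22a that moves cargo between the trans-Golgi and endosomes, with 165 (pDC), 6185 (CD11b+ cDC) and 8412 (CD8+ cDC). Both cDC arrays were above the pDC array, 37.5-fold and 51-fold, and close to each other at 1.36-fold. Its second probe set was below background on all 3 arrays.

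Rab11a, the GTPase of recycling endosomes, gave 20870.2, 26298 and 69100.3, or 3.31-fold more in CD8+ cDC than in pDC and 2.63-fold more than in CD11b+ cDC. At its second probe set CD8+ cDC was 1.53-fold above pDC and 2.37-fold above CD11b+ cDC, so the first of these calls rests on 1 probe set. Rab5b and Rab5c, isoforms of the GTPase that fuses early endosomes, were lowest in CD8+ cDC. Rab5b gave 899.8, 1072 and 413, and Rab5c 608, 980.3 and 455, with CD11b+ cDC 2.59-fold and 2.15-fold above CD8+ cDC. The third isoform, Rab5a, gave 56704, 44842 and 55481 and reached 2-fold in no pair.

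The rest of this class was flat. Rab14, which works between Golgi and endosomes, gave 170968, 162035 and 132188, and its 7 probe sets were above background with no call in any pair. Rab22a, known for recycling of MHC class I, gave 4101, 3863 and 4469, a range of 1.16-fold. Rab35, a GTPase of fast recycling, gave 8195, 7872 and 9839. Rab11b, Rab21 and Rab4b also reached 2-fold in no pair, and Rab15 was near background with 171, 145 and 172.

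Of 16 Rab proteins of the ER and Golgi, 13 were above background, and between the cDC subsets 4 were higher in CD8+ cDC and 1 lower (38.5% called, beside 20.1% of all genes). With spike-in scaling 3 of the 4, Rab19, Rab33b and Rab43, lost that call. Rab39, which kept it, was placed in this class by the list used here, though it acts on phagosomes. Rab43, a Golgi-associated GTPase known to be needed for cross-presentation by CD8+ cDC, gave 6991 (pDC), 44155 (CD11b+ cDC) and 140200 (CD8+ cDC). CD8+ cDC lay 20.1-fold above pDC and 3.18-fold above CD11b+ cDC, and CD11b+ cDC 6.32-fold above pDC. A second probe set gave 18.6-fold, 3.05-fold and 6.08-fold for these steps. With spike-in scaling the step between the cDC subsets shrank to a log2 difference of 0.63, below 2-fold.

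Rab39, which acts on phagosomes and in cross-presentation, gave 819, 1274 and 7279, with CD8+ cDC 8.89-fold above pDC and 5.72-fold above CD11b+ cDC. Rab19 rose in the same order, 938, 3523 and 7359, though its step between the cDC subsets was 2.09-fold and vanished with spike-in scaling (log2 0.02). Rab30, a Golgi GTPase, separated pDC from both cDC subsets instead, with 1460.1, 37259 and 34539. That was 25.5-fold and 23.7-fold higher in the cDC arrays, and its second probe set gave 24.0-fold and 12.5-fold.

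Both ER and Golgi members that were higher in pDC stood far above the cDC arrays. Rab33b, a Golgi GTPase that binds the autophagy protein Atg16l1, gave 186712 (pDC), 8464 (CD11b+ cDC) and 22166 (CD8+ cDC), so that pDC was 22.1-fold and 8.42-fold higher. It has 1 probe set. Rab6b, the isoform of the Golgi GTPase Rab6 known from brain, gave 6409, 597 and 172, and pDC was 10.7-fold above CD11b+ cDC and 37.2-fold above CD8+ cDC. Of its 4 probe sets 3 were called in both pairs, up to 13.8-fold and at least 65.4-fold, and the fourth gave 1.24-fold and 1.85-fold.

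The isoform Rab6a did not follow Rab6b, with 10080.3, 9664 and 15553. Housekeeping GTPases of the early secretory pathway were also flat: Rab1a, for ER to Golgi transport, gave 47956, 63732 and 65637, and Rab1b and Rab2a stayed under 2-fold in every pair. Rab2b and Rab18 did so at their brightest probe set, while dimmer ones gave up to 3.23-fold more Rab2b in pDC than CD8+ cDC, and 2.40-fold more Rab18 in CD11b+ than CD8+ cDC. Rab34 was near background on the first 2 arrays and gave 117, 116 and 190.4.

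Of 10 Rab proteins of secretory vesicles and the cell surface, 8 were above background. Rab3d, a GTPase of regulated exocytosis, gave 7329 (pDC), 1449.7 (CD11b+ cDC) and 1192 (CD8+ cDC), 5.06-fold and 6.15-fold higher in pDC, and 3 of its 4 probe sets were called in both pairs. Rab37, which works in secretion by mast cells and macrophages, was below background in pDC and gave 2953 in CD11b+ cDC and 539 in CD8+ cDC. CD11b+ cDC was thus at least 26.6-fold above pDC and 5.48-fold above CD8+ cDC, with at least 2.07-fold at the second probe set in each pair.

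Rab8a and Rab8b, which carry vesicles from the Golgi to the plasma membrane, were both lower in pDC, each with its own cDC pattern. Rab8a gave 5650.2, 21846 and 10879, highest in CD11b+ cDC (3.87-fold over pDC and 2.01-fold over CD8+ cDC, the latter below 2-fold when arrays were scaled on their medians). Rab8b gave 51451, 97754 and 121630, with CD8+ cDC 2.36-fold above pDC. Rab10, a relative that acts in exocytosis, gave 51768, 35245 and 61014 and no call at its brightest probe set. Rab13, known from tight junctions, gave 276, 228 and 837, with CD8+ cDC 3.03-fold and 3.66-fold above the others, both below 2-fold with spike-in scaling (log2 -0.94 for pDC over CD8+ cDC and 0.83 for CD8+ over CD11b+ cDC). Rab3a and Rab3c had no call.

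Among the remaining GTPases, 6 of 9 were above background. Rab24, an atypical member that hydrolyses GTP slowly and acts in autophagy, was low in CD8+ cDC: 33619.7 (pDC), 23444 (CD11b+ cDC) and 5038 (CD8+ cDC). Its signal in CD8+ cDC was 6.67-fold below pDC and 4.65-fold below CD11b+ cDC, and the second probe set gave 5.63-fold and 3.78-fold. Rab20, which acts in phagosome maturation, was below background in pDC and gave 739 and 1059 in the cDC arrays, at least 6.64-fold and at least 9.53-fold higher. With the stricter background level (412, the 99th percentile of the receptor probe sets) the first of these fell below 2-fold. Rab23, a regulator of Hedgehog signalling, was dim, at 164, 239 and 367, while Rab12, Rab28 and Rab40c reached 2-fold in no pair.

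**Figure D3:**
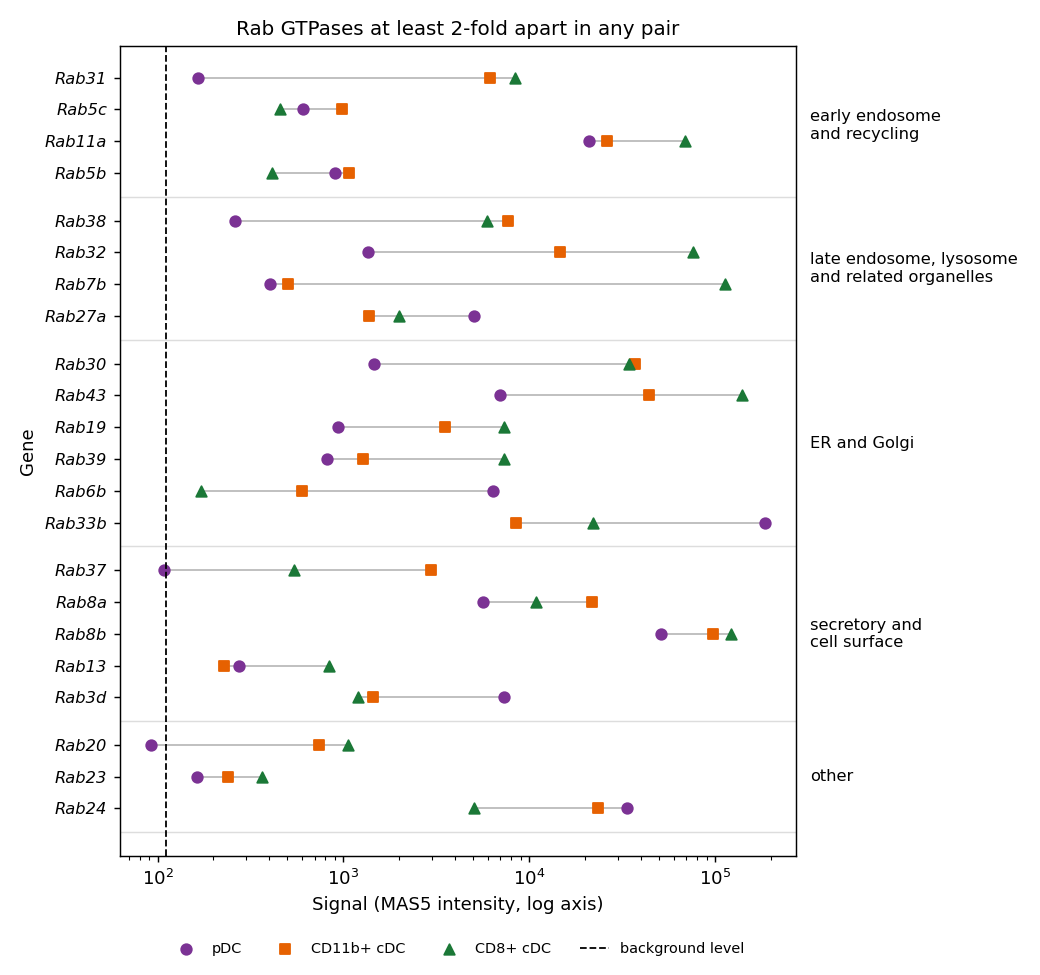
Signal on each of the 3 arrays (log axis; purple circles pDC, orange squares CD11b+ cDC, green triangles CD8+ cDC) for the 22 Rab GTPases at least 2-fold apart in any pair, grouped by compartment, with the background level of 111 dashed. Rab7b spans 405 to 113196, and Rab33b and Rab6b are brightest in pDC.

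GAPs switch Rab proteins off, and 30 of 34 in this family were above background. Membership of the family does not show that each one acts as a GAP. Between pDC and CD11b+ cDC 3 were higher in pDC and 6 lower, against CD8+ cDC 6 were higher and 4 lower, and between the cDC subsets 3 were higher in CD8+ cDC and 5 in CD11b+ cDC. The shares of 30%, 33.3% and 26.7% called either way stand beside 29.3%, 30.8% and 20.1% of all genes. A few of the family differed by over 10-fold.

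Tbc1d9, a TBC domain protein with calcium-binding EF hands, gave 1654 (pDC), 111085 (CD11b+ cDC) and 96294 (CD8+ cDC). Both cDC arrays were far above pDC, 67.2-fold and 58.2-fold, and within 1.15-fold of each other. A dimmer probe set gave at least 5.31-fold and at least 5.73-fold. The related Tbc1d9b gave 6228, 5169 and 5866, and Tbc1d8, of the same subfamily, 77481, 40689 and 72852, neither with a call at its brightest probe set.

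Tbc1d4, also called AS160, is the insulin-regulated GAP of Rab10 and was highest in CD11b+ cDC. It gave 1438 (pDC), 66725 (CD11b+ cDC) and 24011 (CD8+ cDC), so that CD11b+ cDC was 46.4-fold above pDC and 2.78-fold above CD8+ cDC, and CD8+ cDC 16.7-fold above pDC. At the second probe set only CD11b+ cDC was above background, at least 3.21-fold over each of the others. Its nearest relative, Tbc1d1, gave 2023, 3951 and 4166, a step of 2.06-fold from pDC to CD8+ cDC.

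Tbc1d16, known as a GAP of Rab4a, separated the cDC subsets more than any other GAP. It gave 1607 (pDC), 7463 (CD11b+ cDC) and 253 (CD8+ cDC), with CD11b+ cDC 29.5-fold above CD8+ cDC and 4.64-fold above pDC. Tbc1d10c (carabin), an inhibitor of calcineurin and Ras in lymphocytes, was also highest in CD11b+ cDC, at 11538, 23960.2 and 8754, or 2.08-fold above pDC and 2.74-fold above CD8+ cDC. Tbc1d10a, a GAP of Rab27a and Rab35, gave 190.4, 657 and 316, but its second probe set was not called toward CD11b+ cDC.

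Rabgap1l was the GAP highest in pDC, with 87822 (pDC), 3461 (CD11b+ cDC) and 12546 (CD8+ cDC). All 5 of its probe sets were called toward pDC in both pairs, from 7.90-fold to 25.4-fold over CD11b+ cDC and from 6.81-fold to 14.9-fold over CD8+ cDC. Between the cDC subsets the 4 probe sets that could be compared disagreed, with log2 differences from -0.55 to 1.86 for CD8+ minus CD11b+ cDC. The close relative Rabgap1 gave 4351, 5517 and 4439 with no call.

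Smaller steps toward pDC were seen at Tbc1d19 (916, 282 and 228; 3.24-fold and 4.02-fold) and Tbc1d2b (5555, 2177 and 1262; 2.55-fold and 4.40-fold). Rab3gap1, the catalytic subunit of the Rab3 GAP, gave 5619, 2967 and 2103 and was 2.67-fold higher in pDC than in CD8+ cDC, while its partner Rab3gap2 gave 3314, 2629 and 3524. Tbc1d12, which binds Rab11, was highest in CD8+ cDC with 366, 329 and 1059.8. The Rab1 GAP Tbc1d20 and the Rab7 GAPs Tbc1d5 and Tbc1d15 reached 2-fold in no pair at their brightest probe set. Tbc1d17, Tbc1d24, Tbc1d32 and Tbc1d8b were called in 1 pair each, by 2.11-fold to 2.52-fold, and 8 further members of the family, such as Tbc1d14 and Tbc1d23, in none.

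GEFs switch Rab proteins on, and 21 of 23 were above background. In pDC against CD11b+ cDC, 5 were higher in pDC and 7 lower, or 57.1% called beside 29.3% of all genes. Against CD8+ cDC 5 were higher in pDC and 6 lower (52.4%, beside 30.8%), and between the cDC subsets 3 of 20 were higher in CD8+ cDC and 4 in CD11b+ cDC (35.0%, beside 20.1%).

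Rin2 and Rin3 are exchange factors of Rab5. Rin2 gave 152 (pDC), 4067 (CD11b+ cDC) and 158 (CD8+ cDC), so that CD11b+ cDC stood alone, 26.7-fold and 25.7-fold above the others. Rin3 gave 957, 7145 and 4369 and was 7.47-fold and 4.57-fold higher in the cDC arrays than in pDC. Rabgef1, or Rabex-5, another exchange factor of Rab5, was highest in CD8+ cDC at 2438, 2719.7 and 5921, though 1 of its 3 probe sets was called against pDC and 2 against CD11b+ cDC. The related Rin1 was not above background.

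DENN domain proteins are the largest GEF family, and their members split among the 3 subsets. Dennd3, the exchange factor of Rab12, gave 2699 (pDC), 22099 (CD11b+ cDC) and 1012 (CD8+ cDC), with CD11b+ cDC 8.19-fold and 21.8-fold above the others. Dennd11 gave 1067, 4389 and 1469.8 and Dennd1c, an exchange factor of Rab35, 5122, 13317 and 6380.4, both also highest in CD11b+ cDC. Dennd5a, at 39621, 83983 and 62867, was 2.12-fold higher in CD11b+ cDC than in pDC.

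Dennd2d and Dennd2c, of a subfamily that acts on Rab9, were highest in CD8+ cDC. Dennd2d gave 2348 (pDC), 324 (CD11b+ cDC) and 7556 (CD8+ cDC), 23.3-fold from the lowest to the highest, and its second probe set gave 3.75-fold for that step. CD8+ cDC was 3.22-fold above pDC but 1.73-fold at the second probe set, so that call rests on 1 probe set. Dennd2c gave 342, 622 and 1731. Dennd1b, which also acts on Rab35, gave 11726, 15603 and 30111, or 2.57-fold more in CD8+ cDC than in pDC, a call lost with spike-in scaling (log2 -0.71).

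On the pDC side stood Dennd5b, Dennd4c, Dennd6a and Rab3ip. Dennd5b gave 898 in pDC and was below background in both cDC arrays, at least 8.08-fold higher, though a second probe set gave at least 1.58-fold. Dennd4c, of the family that activates Rab10, gave 5282, 1614 and 1046 (3.27-fold and 5.05-fold). Dennd6a, the exchange factor of Rab14, gave 7038, 2438 and 2117 (2.89-fold and 3.32-fold), and Rab3ip, or Rabin8, which activates Rab8, gave 10844, 4375 and 4382 (2.48-fold and 2.47-fold). Their partners Rab10 and Rab14 had no call, and Rab8a was lower in pDC than in CD11b+ cDC. Rab3il1, a relative of Rab3ip, ran the other way, with 481, 1000.5 and 1031 (2.08-fold and 2.14-fold). At its second probe set the cDC arrays were 1.17-fold and 1.39-fold above pDC, so both calls rest on 1 probe set. Dennd1a, Dennd4a, Dennd4b, Dennd6b, Dennd10 and Rabif had no call.

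All 8 effectors were above background, and the 5 Rab11-binding FIP proteins split. Rab11fip4 gave 114 (pDC), 3758 (CD11b+ cDC) and 8491 (CD8+ cDC), 32.9-fold and 74.4-fold higher in the cDC arrays. Its second probe set gave 1.13-fold and 2.74-fold for the same pairs, so the size of the step depends on the probe set. Rab11fip1 followed the same order at 254, 726 and 1257. Rab11fip5, which sorts cargo from recycling endosomes, ran the other way with 8004, 1985 and 1540, and both its probe sets were called, from 4.03-fold to 9.46-fold higher in pDC.

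Rab11fip2 gave 7882, 5694 and 7145 with no call, and Rab11fip3 was near background. Rabep1, the Rab5 effector rabaptin-5, had the smallest range of the members at 4 times background or more on every array, with 5993, 5581 and 5902 (1.07-fold). Rab9, Rabif and Rab22a followed, at 1.12-fold, 1.12-fold and 1.16-fold, and then Rab12. The rabaptin relative Rabep2 and the Rab9 effector Rabepk had no call. Of the genes matched by name only, Rab5if gave 97004, 122674 and 197380, 2.03-fold more on the CD8+ cDC array than on that of pDC, and Rab10os gave 18102, 24577 and 17871. Which strand the antisense probe sets read was not checked.

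**Figure D4:**
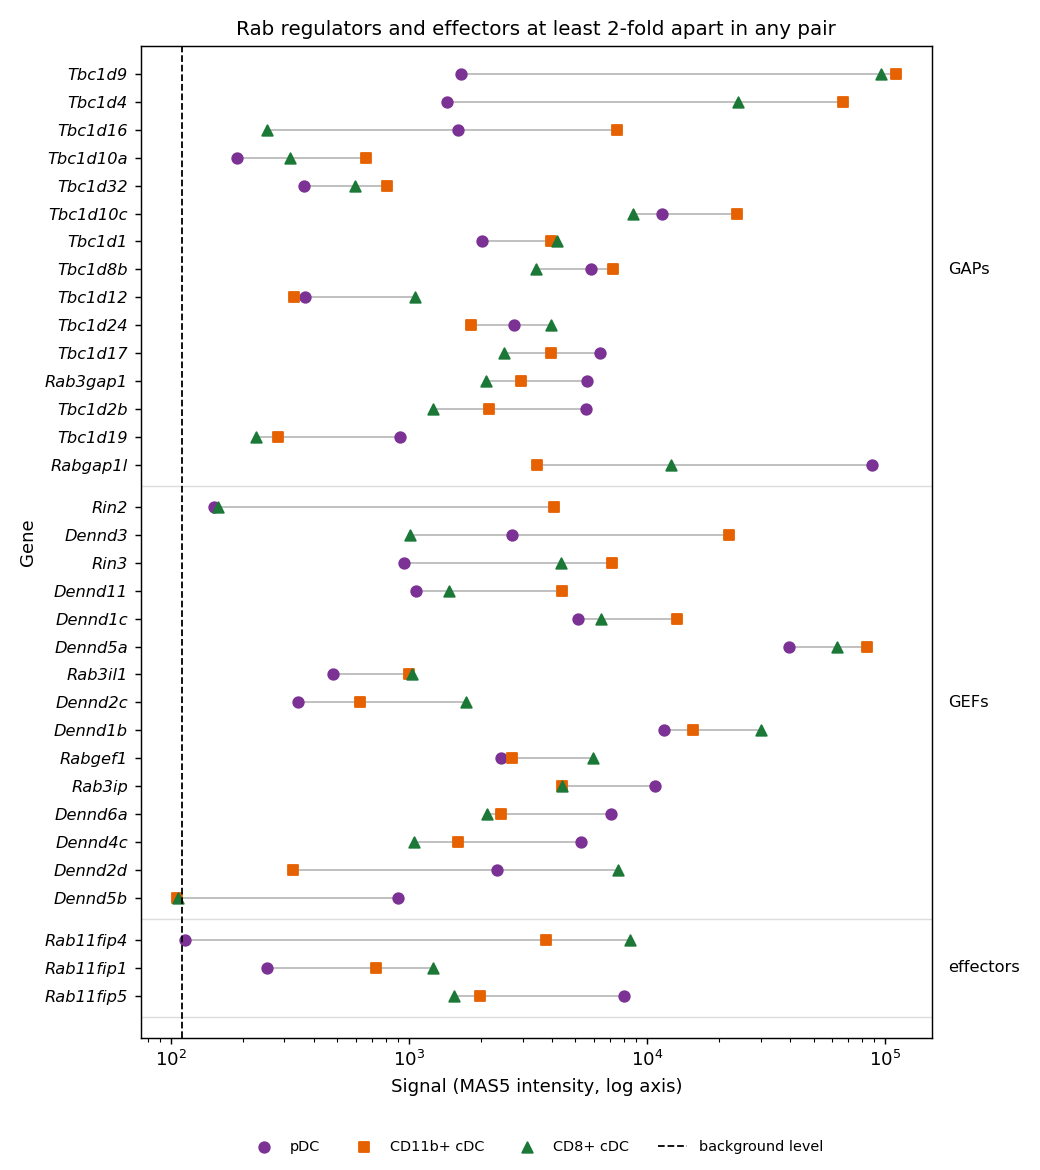
Signal on each of the 3 arrays (log axis; purple circles pDC, orange squares CD11b+ cDC, green triangles CD8+ cDC) for the 33 members of the GAP, GEF and effector families at least 2-fold apart in any pair, with the background level of 111 dashed. Tbc1d9 spans 1654 to 111085, Rin2 and Dennd3 are brightest in CD11b+ cDC, and Rabgap1l in pDC.

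How far a call rests on 1 probe set was read from the other probe sets of a gene. Of the members called in a pair, 17, 20 and 14 had 2 or more probe sets above background (pDC and CD11b+ cDC, pDC and CD8+ cDC, and the cDC subsets), and in 11, 11 and 9 of these every one was called the same way. The other 20, 25 and 16 called members were read by 1 probe set. Between the brightest and the second probe set the log2 differences of members differed with an SD of 1.2, 0.91 and 0.70 (58, 57 and 57 members), beside 0.86, 0.89 and 0.74 over all genes. No second probe set was called in the direction opposite to the first.

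**Figure D5:**
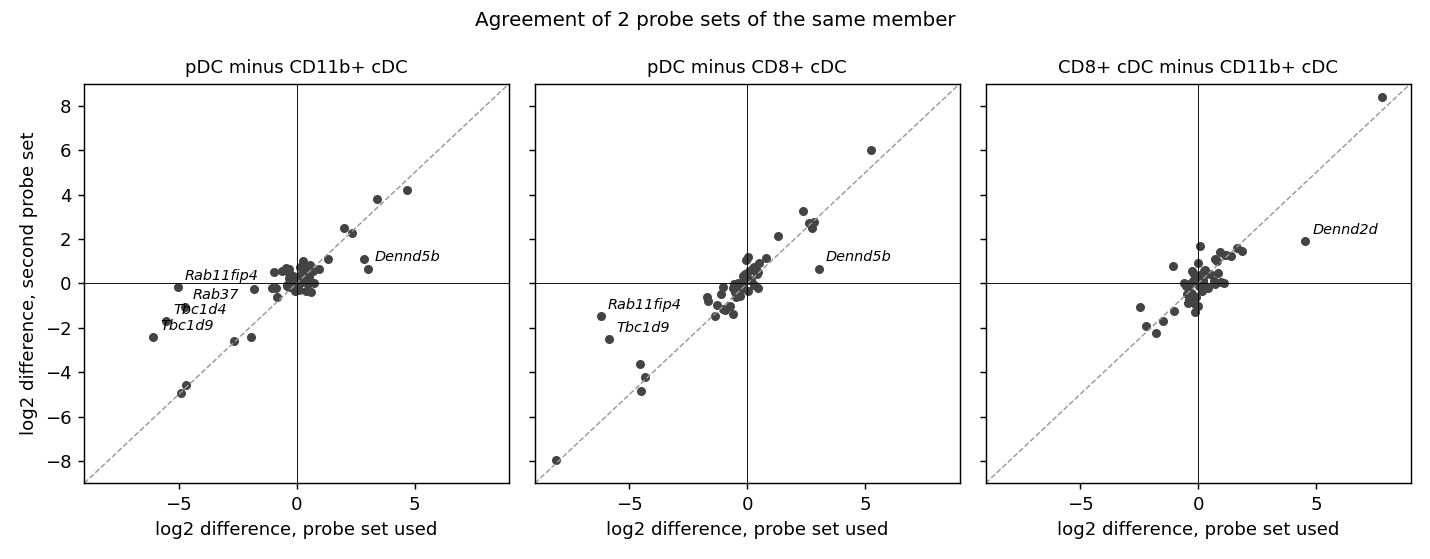
Log2 difference at the brightest probe set of a member (x axis) and at its second probe set (y axis), 1 point per member, for each array pair; the dashed line marks equality. Rab11fip4, Rab37, Tbc1d4, Tbc1d9, Dennd5b and Dennd2d are named where the readings differ by over 2, and no member called at the first probe set was called the opposite way at the second.

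Other genes of Rab traffic, listed by function, were near the background share. Of 93 such genes 86 were matched and 76 were above background, and 13 were higher and 12 lower in pDC than in CD11b+ cDC (32.9% called, beside 29.3%). Against CD8+ cDC the counts were again 13 and 12 (32.9%, beside 30.8%), and between the cDC subsets 6 were higher in CD8+ cDC and 5 in CD11b+ cDC of 74 (14.9%, beside 20.1%). The largest differences were at Rilpl1, which binds Rab8 and Rab10 and regulates cilia, and Lrrk2, the kinase that phosphorylates Rab8 and Rab10. Rilpl1 gave 26215 in pDC, 124.9 in CD11b+ cDC and a signal below background in CD8+ cDC, 209.9-fold and at least 236-fold higher in pDC. Lrrk2 gave 248 (pDC), 29021 (CD11b+ cDC) and 23768 (CD8+ cDC), 117-fold and 95.8-fold higher in the cDC arrays. These 2 genes were picked for their size after the values were seen.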

How the data were processed

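Per the labels, total RNA pooled from 5 to 8 mice per subset was amplified, biotin-labelled and hybridised to 1 Affymetrix array per subset. The deposited values are linear intensity values, 1 per probe set, and the submitters' processing notes name MAS5 without a version; further scaling: not given in the sources used here. Probe sets were named by the platform annotation, and all 129 members were found by gene number in the RefSeq table of GRCm38.p6.

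Values under the background level (the 95th percentile of 87 receptor probe sets, on the array where it was highest) were raised to it before log2. Each gene was read at its probe set of highest mean log2 signal. Shares called are over genes above background on either array of a pair. With 1 array per subset no test was run, and the number of arrays limits the precision. Named genes were, per pair and direction, up to 12 members with the largest differences and the brightest array at 4 times background, all members specific to a subset, the 5 flattest, and 25 chosen for known function; further members are named to account for their class. Role, marker and pathway lists and the members were chosen with earlier results of these data known. The 2-fold rule was checked on simulated arrays with little noise and known changes of at least 4-fold in bright genes in pDC. That check does not cover changes near 2-fold, dim genes or the spread between samples. Python 3.11.15, numpy 2.4.6, pandas 2.3.3 and matplotlib 3.10.9 were used.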

Additional observations from a re-analysis of the deposited data

How the results depend on the processing

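Alternatives were the background level, the scaling, the probe set taken and the fold. Those for pathway genes were chosen after seeing the data. Of 80 counts of members or pathway genes under them, 70 stayed within 1.5 times the reported count. With spike-in scaling 29 members were higher in pDC than in CD8+ cDC (18 as reported), and between the cDC subsets 4 were higher in CD8+ cDC and 56 in CD11b+ cDC (15 each as reported). That scaling called 34.3%, 3.71% and 49.5% of all genes in these directions. It left the count of members specific to a subset at 13, but only 9 of these were shared with the reported sets. At 3-fold, 8 were higher in CD8+ cDC, 6 in CD11b+ cDC, and 16 pathway genes outside the rule were called in any pair (36 as reported). At 1.5-fold, 20 were higher in pDC than in CD11b+ cDC, 26 in CD8+ and 23 in CD11b+ cDC between the cDC subsets, and 47 members were specific to a subset (13 as reported). Scaling on array medians, quantile normalization, the 99th percentile as background, no background filter, the median over probe sets, plain probe sets only and leaving out probe sets above the largest 16-bit reading kept each count of members within 1.5 times.

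The alternatives other than the fold gave 1309 log2 differences of the 57 named genes, with none from Rab27b. Of these, 1260 kept their side of 2-fold, 25 fell below it, 23 rose to it and 0 of those called changed sign. Many could not change: a gene with 1 probe set returns the same value, or none, when the choice of probe set is altered. One more, Rabif for pDC minus CD8+ cDC, went from -0.04 to 1.06 with plain probe sets. Spike-in scaling gave 15 of the losses and 20 of the gains, beside 131 values that kept their side. Rab43, Rab33b and Rabgap1l were among those losing the call between the cDC subsets. No paired analysis was possible because each subset has 1 array. Array number and signal over background limit all values.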

Other observations

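Some members without a call in a pair at their brightest probe set were at least 2-fold apart at another one: 8 in pDC against CD8+ cDC and 7 between the cDC subsets. Rab10, which acts in exocytosis, was 3.48-fold higher in CD8+ than in CD11b+ cDC at one probe set (10364 (pDC), 6267 (CD11b+ cDC) and 21782 (CD8+ cDC)) and 2.01-fold at another, against 1.73-fold at the brightest. Tbc1d15, a GAP of Rab7, was 2.14-fold higher in CD8+ than in CD11b+ cDC and 2.61-fold higher than in pDC at its second probe set, with 3394, 4143 and 8851. Rab2b, a GTPase of the Golgi, was 3.23-fold and 2.23-fold higher in pDC than in CD8+ cDC at 2 dimmer probe sets and 1.73-fold at the brightest. In these 3 genes every probe set above background differed in that pair in the same direction as the brightest. These members were picked after their values were seen.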
